A study of Mus musculus with 8 samples.

Results

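The masses described here are those that lie within 3 ppm of the neutral formula of a C18, C19 or C21 steroid hormone, of one of their reduced or oxygenated relatives, or of 2 steroid sulfates. The list held 29 formulas. Of these, 20 were matched by 25 of the 2429 masses in the table, and 9 had no mass within 3 ppm. Faeces of female C57BL/6 mice, an inbred strain described as age-matched, made up both groups: 4 untreated samples, and 4 samples taken 24 h after an oral gavage of 20 mg of streptomycin, an antibiotic that acts on bacterial ribosomes. Acetonitrile extracts were infused directly and weighed by Fourier-transform ion cyclotron resonance (FT-ICR) mass spectrometry, a method that measures ion masses precisely but does not separate isomers. Because treated faeces were collected after untreated faeces, treatment and time of collection cannot be told apart. By the study's description the mice were sampled before and again after dosing, but the labels do not tie a sample to a mouse or say that samples of a group came from different mice. The p-values reflect how far these samples scatter, and part of that scatter may be technical.

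Steroid hormones share 4 fused carbon rings. C21 steroids include the progestogens and the glucocorticoids, of which corticosterone is the main one in mice. C19 steroids are the androgens, made from C21 steroids by loss of the side chain. C18 steroids are the oestrogens, made from androgens by aromatisation of ring A. The liver reduces these hormones in steps of 2 hydrogens, attaches sulfate or glucuronate, and excretes part of the products in bile. Gut bacteria are known to remove these conjugates, to reduce ring A and keto groups, to remove the 21-hydroxyl group of corticosteroids, and to cleave side chains. A formula therefore shows carbon number, oxygen number and state of reduction, but not which isomer is present. Non-steroid compounds can share it: monolinolenin, a product of fat digestion, has the formula C21H36O4, and a monoacylglycerol of an 18:4 fatty acid has C21H34O4. A hormone name below stands for a mass at that formula and is not an identification.

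The table gives relative intensities on a linear scale for 2 acquisitions per sample, and the mean of both was the value of a sample. Untreated samples listed 1210 to 1270 masses and streptomycin samples 1633 to 1768, with summed intensities of 19761 to 20140 and 21600 to 23221. Both masses at formulas of the calibration mix spiked into the extracts were higher in streptomycin samples, at 193 ± 21.7 against 147 ± 9.31 for 621.0216 Da and at 138 ± 12.4 against 100.3 ± 12.0 for 921.0027 Da (SD, n = 4). The number of ions behind an intensity is unknown, so no counting interval is given. The steroid masses were weak. Their listed values ran from 0.224 to 24.8 with a median of 1.57, against a median of 2.08 over all listed values of the table. The 25 masses together came to 48.5 ± 7.67 in untreated samples, 0.244% of all intensity, and to 23.5 ± 3.71 after streptomycin, 0.105% (SD, n = 4). One mass, 316.2403 Da, made up much of the first sum. Without it the sums were 32.3 ± 1.5 and 21.6 ± 3.43 (SD, n = 4). All 25 masses lay between -0.32 and 0.70 ppm of their formula, and the nearest row outside the tolerance, 330.2180 Da, lay at -4.53 ppm. The median difference between both acquisitions of a sample was 0.774% to 16.9%, depending on the mass.

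The comparison asked which steroid masses differed between untreated and streptomycin samples. C21 masses of 2 to 4 oxygens were lower or were listed in untreated samples alone, whereas of 6 C21 masses of 5 oxygens 4 were listed in streptomycin samples alone and 2 in untreated samples alone. Of 7 C19 masses 5 were listed in streptomycin samples alone. Of the 25 masses, 9 were listed in untreated samples only, against 26.6% of all masses. A further 10 were listed in streptomycin samples only, against 47.3% of all masses, and 6 were listed in both groups. Over all 25, limma called 14 lower and 10 higher, and 1 did not pass. Among all masses tested 89.4% were called, 36.7% lower and 52.7% higher. A mass listed in one group only is called because a value stands in for 0, so these counts repeat the listing. A 0 says only that the mass was not listed, so folds are left out for these masses. Of the 6 masses in both groups, 5 were lower at an adjusted p under 0.05, none was higher, and 1 did not pass. Among all 633 masses in both groups 59.4% were called, 38.7% lower and 20.7% higher. The median log2 change of the 6 was -1.53, and that of all 633 was -0.47. Dividing by total intensity, by the median ratio or by the calibrants moves the log2 change of a mass listed in all 8 samples down by 0.16, up by 0.39 or down by 0.43, and by other amounts where a stand-in replaces a 0. The log2 change of all 6 masses was below 0 on each of these scales, but on the median-ratio scale 3 of the 6 passed.

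**Figure D1:**
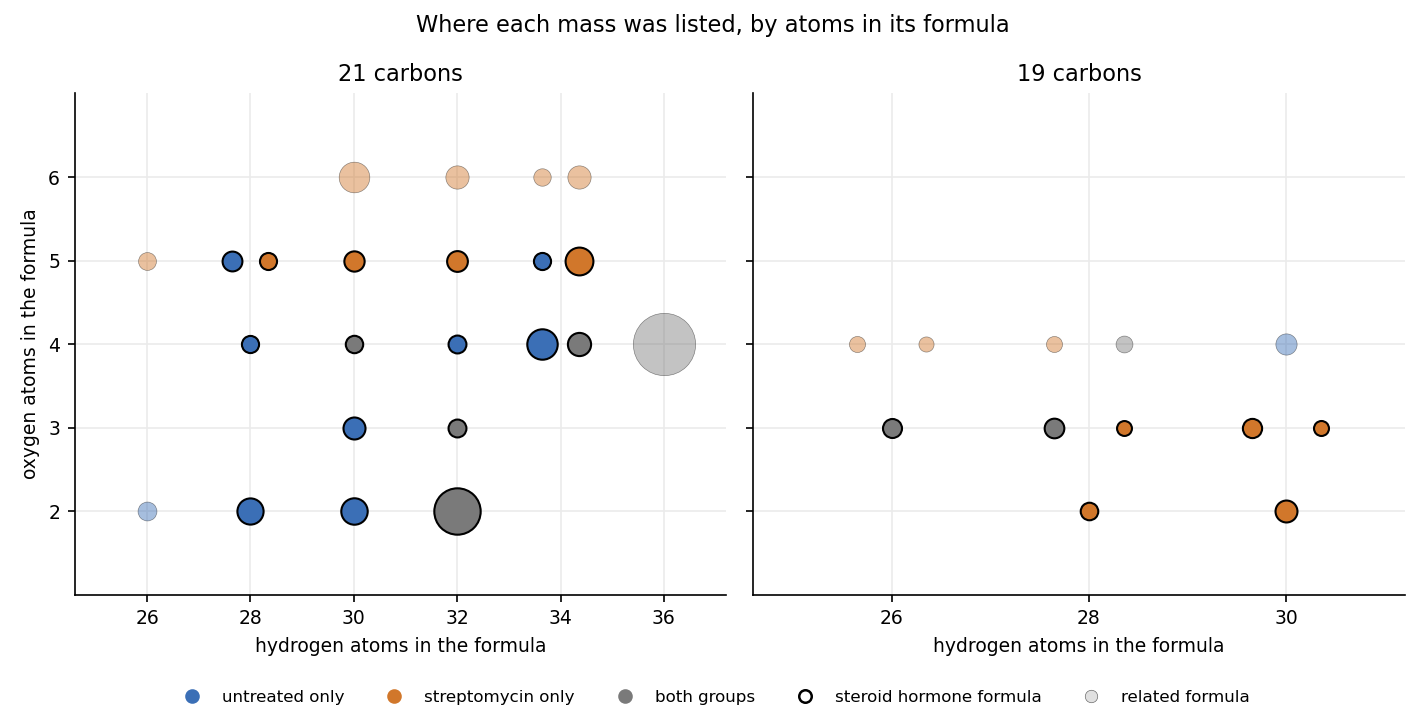
Each circle is a mass, placed by the number of hydrogen (x axis) and oxygen (y axis) atoms in its formula, for 21 carbons (left) and 19 carbons (right). Colour gives the samples that listed it, area rises with the larger group mean of relative intensity, heavy outlines mark steroid hormone formulas and pale circles mark related formulas, and masses that share a formula are drawn side by side. For 21 carbons, none of the 10 hormone masses with 2 to 4 oxygens was listed in streptomycin samples only, and 4 of the 6 with 5 oxygens were. Over all masses the share was 47.3%.

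The progestogen formulas, C21 with 2 oxygens, were those of the untreated samples. C21H32O2, the formula of pregnenolone, the first steroid made from cholesterol, and of pregnanedione, a reduced progesterone, was the most intense of all hormone formulas. Its mass, 316.2403 Da, stood at 17, 9.99, 13.2 and 24.8 in untreated samples 1 to 4, and at 2.90, 2.39, 2.20 and 0 in streptomycin samples 1 to 4. Every untreated sample was above every streptomycin sample, and the untreated samples themselves spread widely. The group means were 16.3 ± 6.38 and 1.87 ± 1.28 (SD, n = 4), and the log2 change was -3.90 ± 1.18 (SE, with the lowest sample value of the table, 0.0738, in place of the 0; limma adjusted p = 0.0155). Without streptomycin sample 4, the one at 0, it was -2.63 (limma adjusted p = 0.000208).

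Progesterone, the hormone of the luteal phase and of pregnancy, has the formula C21H30O2. Its mass, 314.2248 Da, was at 4.60, 3.92, 4.37 and 4.38 in untreated samples and was listed at 0 in all streptomycin samples. The formula with 2 hydrogens fewer, C21H28O2 at 312.2091 Da, was at 4.42, 3.94, 4.01 and 4.48 in untreated samples and likewise listed at 0 in streptomycin samples. Both masses varied little between untreated samples, by an SD of 0.284 and 0.275. Pregnanolone, C21H34O2, the most reduced formula of the series, had no mass within 3 ppm. Each of the 2 listed masses has a row lower by the spacing of potassium for hydrogen, 276.2688 Da at 17.2 ± 2.25 and 274.2532 Da at 21.3 ± 2.12 (SD, n = 4), both of untreated samples only. Whether an ion form contributes to the steroid masses was not tested.

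Formulas with 3 oxygens fit hydroxyprogesterone and 11-deoxycorticosterone, the precursor of corticosterone, and their reduced forms. The mass of C21H30O3, 330.2196 Da, was at 2.65, 2.60, 2.37 and 2.62 in untreated samples and listed at 0 in streptomycin samples. The mass of C21H32O3, 332.2353 Da, was at 0.626, 1.21, 1.37 and 1.62 in untreated and at 0.414, 0, 0.414 and 0.770 in streptomycin samples. Untreated sample 1 fell below streptomycin sample 4, so the groups overlapped. The mass was listed in 13 acquisitions, with both in 6 samples, so another listed sample averages in a 0. Whether the overlap rests on that 0 was not tested. With a stand-in value for the 0 of streptomycin sample 2 the log2 change was -1.86 ± 0.72 (SE; limma adjusted p = 0.0386), and without that sample it was -1.16 (limma adjusted p = 0.0304). The call was lost with undetected values halved or set to 1 (limma adjusted p = 0.0624 and 0.0651) and in acquisition a alone (limma adjusted p = 0.245). In acquisition b alone and over listed acquisitions only, the call held (limma adjusted p = 0.0081 and 0.00592). It was also lost on the median-ratio scale (limma adjusted p = 0.0904) and without any one of untreated samples 2, 3 and 4 or streptomycin samples 1 and 3 (limma adjusted p = 0.0572 to 0.0923). The call held in 10 of 21 alternatives run. C21H28O3 and C21H34O3 had no mass within 3 ppm.

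The 4-oxygen formulas are those of corticosterone and of its oxidised and reduced products. Corticosterone and its isomer 11-deoxycortisol, C21H30O4, matched 346.2143 Da at 1.00, 1.16, 1.01 and 1.08 in untreated and 0.902, 0.729, 0.902 and 0.487 in streptomycin samples. The groups did not overlap, which was so for 5 of the 6 masses in both groups, all lower. Of all masses in both groups 39.7% did not overlap and were lower, and 20.1% did not overlap and were higher. The lowest value belonged to streptomycin sample 4, and the gap between the groups was narrow. The corticosterone mass was listed in 15 acquisitions, with both in 7 samples, so the remaining sample averages in a 0. Whether the low value rests on that 0 was not tested. The log2 change was -0.53 ± 0.21 (SE; limma adjusted p = 0.0402), the smallest of the 6. It did not pass on the median-ratio scale, at -0.14 (limma adjusted p = 0.568), nor in acquisition b alone (limma adjusted p = 0.187). Nor did it pass without any one of the untreated samples or streptomycin sample 2 (limma adjusted p = 0.0613 to 0.0920). Over listed acquisitions only it was -0.28 and passed (limma adjusted p = 0.0377). Without streptomycin sample 4 it was -0.33 and passed (limma adjusted p = 0.0319). Of 22 alternatives 11 passed.

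Both neighbours of corticosterone in the reduction series were listed in untreated samples only. 11-Dehydrocorticosterone, C21H28O4, the inactive form that 11-beta-hydroxysteroid dehydrogenase makes from corticosterone, matched 344.1989 Da at 0.986, 0.921, 0.843 and 1.2. Dihydrocorticosterone, C21H32O4, the first product of ring A reduction, matched 348.2301 Da at 0.711, 1.46, 1.31 and 1.35. Untreated sample 1 was the lowest for dihydrocorticosterone, as it was for C21H32O3. The dihydrocorticosterone mass was listed in 7 acquisitions, with both in 3 samples, so the remaining untreated sample averages in a 0. Whether the low values of sample 1 rest on unlisted acquisitions was not tested.

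Tetrahydrocorticosterone, C21H34O4, the fully ring A-reduced product of corticosterone, stood on 2 rows. The row at 350.2458 Da was at 7.53, 5.33, 5.11 and 6.77 in untreated samples and listed at 0 in streptomycin samples. The row at 350.2459 Da was at 2.76, 3.49, 2.70 and 3.04 in untreated and 1.85, 0.588, 1.26 and 1.25 in streptomycin samples. All 4 streptomycin samples lay below all 4 untreated samples, and streptomycin sample 2 was the lowest. This row was listed in 15 acquisitions, with both in 7 samples, so the remaining sample averages in a 0. The log2 change of this row was -1.38 ± 0.33 (SE; limma adjusted p = 0.00533), and it passed under all 22 alternatives run, with log2 changes of -1.88 to -0.99.

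**Figure D2:**
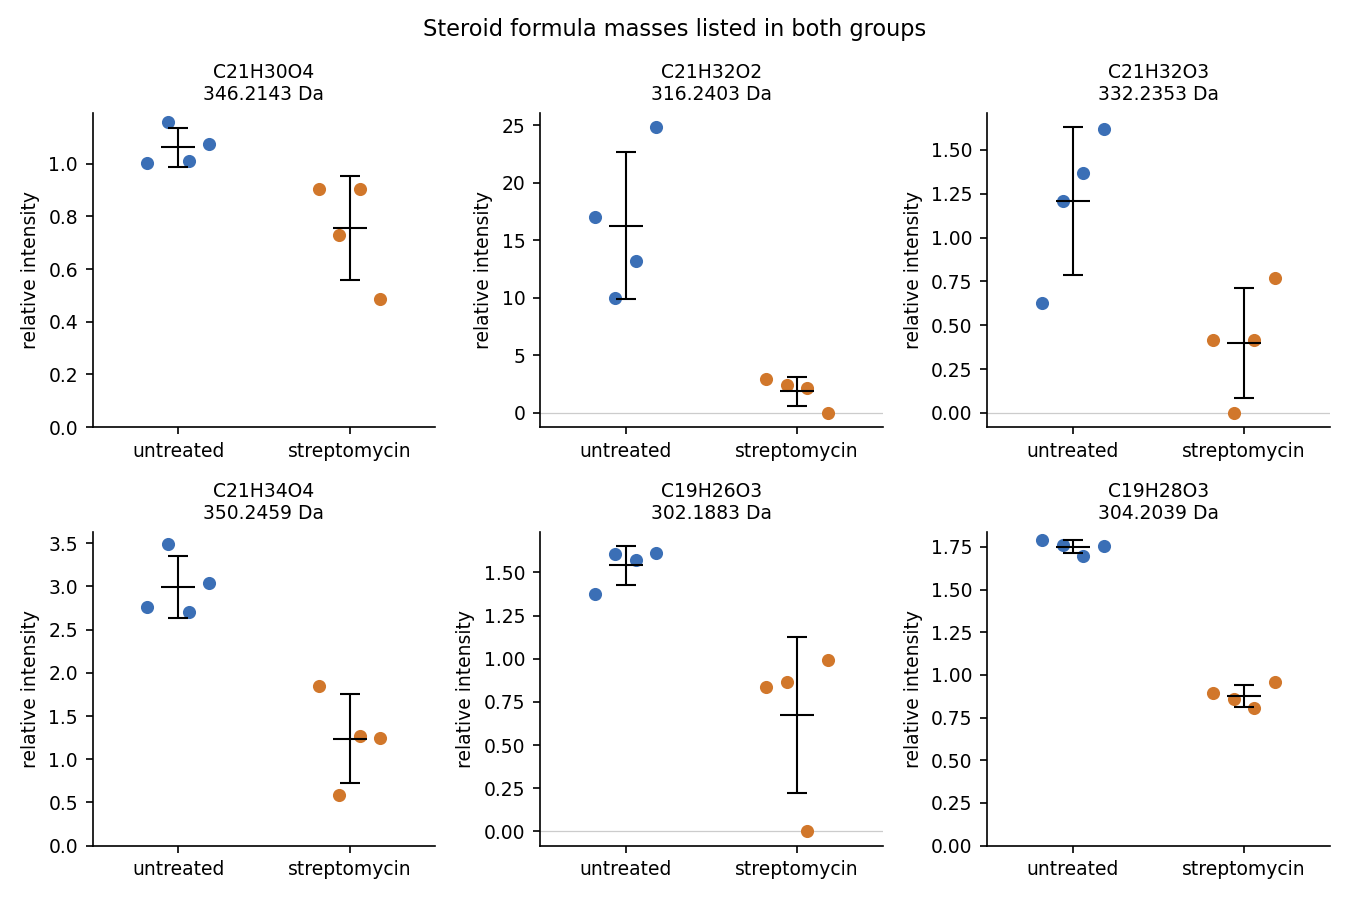
Relative intensity (linear y axis) of the 6 steroid formula masses listed in both groups, in untreated and streptomycin samples. Points are samples, and bars are the mean and SD of n = 4. Streptomycin samples lie below untreated samples in every panel but C21H32O3, where 0.626 in an untreated sample falls below 0.770 in a streptomycin sample.

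Responses of the 6 masses in both groups were set against each other within each sample. Such a ratio does not depend on scaling where both masses are listed, but 12 of the 15 pairs hold a mass with a stand-in for a 0. No pair of formulas that differ by 2 hydrogens or by 1 oxygen was listed in all 8 samples, so all 15 pairs of the 6 masses were compared, a choice made after the data were seen. The log2 ratio of the corticosterone mass to the tetrahydrocorticosterone row at 350.2459 Da was -1.49 ± 0.0725 in untreated and -0.64 ± 0.731 in streptomycin samples (SD over 4 samples). The difference was 0.85, with an exact 97.1% interval of 0.06 to 1.90, and its exact two-sided permutation p was 0.0286, the smallest that 4 against 4 samples allow. Adjusted over the 15 pairs it was p = 0.143 in the exact test. Both masses of this pair were listed in 15 acquisitions, with both acquisitions in 7 samples, so each has a sample value that averages in a 0. How far the spread of the streptomycin ratios rests on this was not tested. For corticosterone over C21H32O2 the difference was 3.37, with an interval of 1.40 to 7.25 and the stand-in value for the 0 of streptomycin sample 4 (exact permutation p = 0.0286, adjusted p = 0.143). For C21H32O2 over hydroxytestosterone, at 304.2039 Da, it was -2.90 with an interval of -7.52 to -0.80 (exact permutation p = 0.0286, adjusted p = 0.143). None of the 15 pairs passed after adjustment, and these 3 had the smallest exact p. With 4 samples a group no pair could pass unless at least 9 of the 15 reached that smallest p. For C19H26O3 against C19H28O3, a step of 2 hydrogens, the difference was -0.68 with an interval of -3.34 to 0.43, which leaves room for differences either way.

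With 5 oxygens, the C21 formulas are those of cortisol, cortisone and aldosterone and of their reduced products. Mice make little cortisol, for lack of adrenal 17-hydroxylase. The mass of cortisol, C21H30O5, 362.2095 Da, was at 2.64, 2.17, 1.57 and 1.43 in streptomycin samples. Dihydrocortisol and tetrahydroaldosterone share C21H32O5, whose mass, 364.2252 Da, was at 2.63, 2.11, 1.85 and 1.89. Both were listed at 0 in all untreated samples. Streptomycin sample 1 was the highest for both.

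The remaining C21 formulas of 5 oxygens stood on 2 rows each, one per group. Cortisone and aldosterone, C21H28O5, matched 360.1938 Da at 1.90, 1.93, 1.76 and 1.63 in untreated samples only, and 360.1939 Da at 1.21, 1.21, 0.865 and 0.593 in streptomycin samples only. Tetrahydrocortisol, C21H34O5, matched 366.2407 Da at 0.958, 1.11, 0.901 and 0.990 in untreated samples only, and 366.2408 Da at 7.24, 4.54, 3.64 and 4.33 in streptomycin samples only. The row at 366.2408 Da was the most intense steroid mass of the streptomycin samples, and sample 1 was again the highest.

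**Figure D3:**
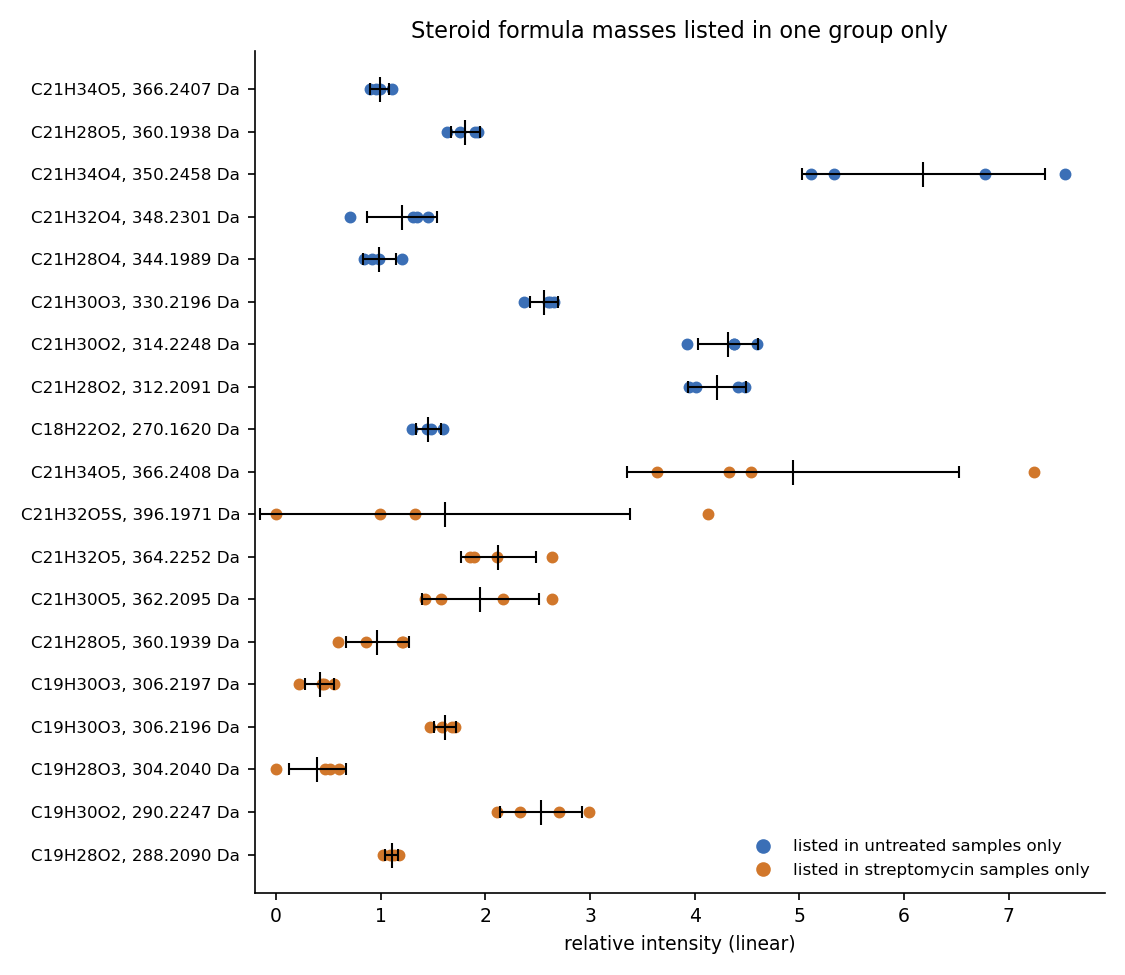
Relative intensity (linear x axis) of the 19 steroid formula masses listed in one group only, with samples of that group as points and the mean and SD of n = 4 as bars. The masses of untreated samples run up to 7.53 for C21H34O4 and those of streptomycin samples up to 7.24 for C21H34O5.

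In all, 5 formulas stood on 2 rows, 0.1 mDa apart. The table does not give the ion mode of a row, and the samples were measured in both modes. In 2 of the 5 formulas the rows were listed in opposite groups, and of 190 neighbouring rows within 1 ppm across all masses, 21 were (11.05%). Rows of a formula were therefore also summed, an alternative added with the values in view, which assumes that rows add on one scale. The sum for C21H28O5 was 1.81 ± 0.139 without and 0.969 ± 0.299 with streptomycin (SD, n = 4), a log2 change of -0.95 ± 0.24 (SE; limma adjusted p = 0.00654). C21H34O5 was at 0.990 ± 0.0886 and 4.94 ± 1.58, a log2 change of 2.27 ± 0.21 (SE; limma adjusted p = 1.8e-05). C21H34O4 was at 9.18 ± 1.10 and 1.24 ± 0.517, a log2 change of -2.99 ± 0.33 (SE; limma adjusted p = 5.39e-05). Counted by formula in this way, 6 of 20 were listed in untreated samples only, 6 in streptomycin samples only and 8 in both, with 12 lower and 7 higher.

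**Figure D4:**
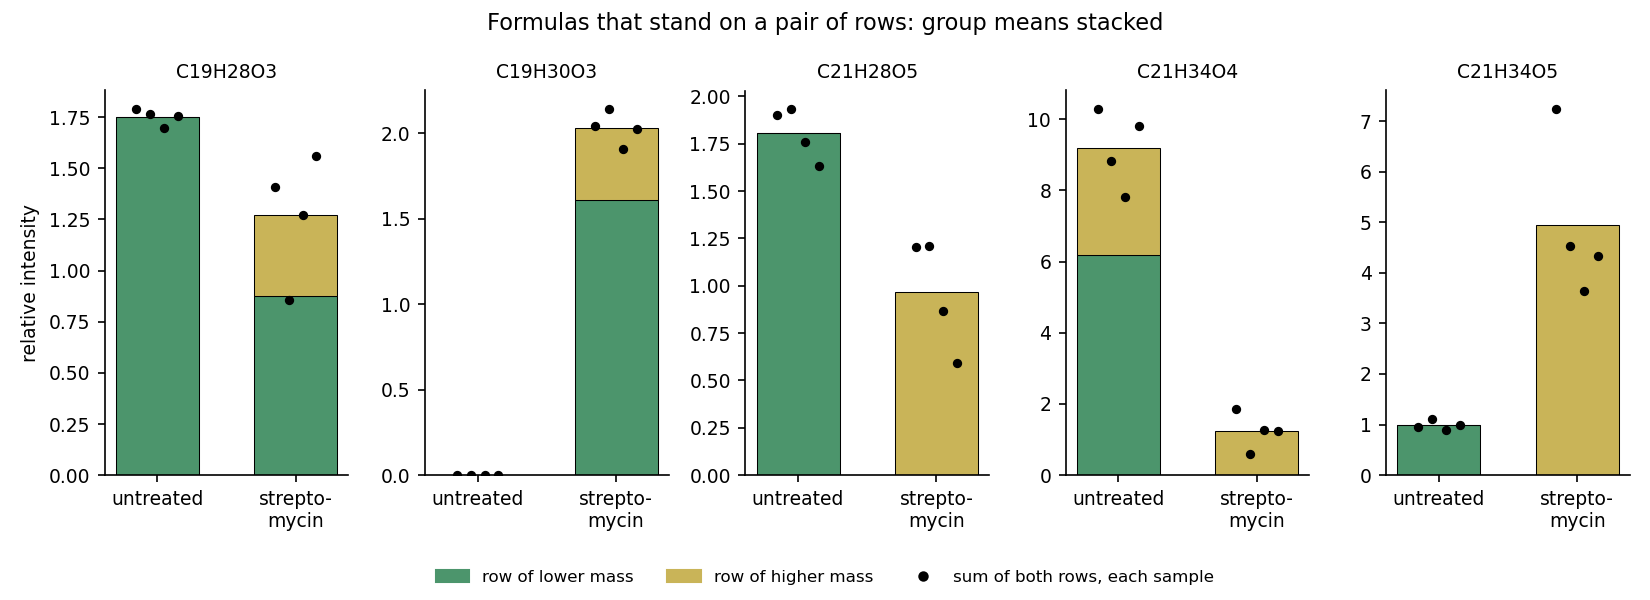
Relative intensity (linear y axis, from 0) of the 5 formulas that stand on a pair of rows, with the group means of the row of lower and of higher mass stacked. Points are the sum of both rows in each sample. The sum is lower in streptomycin samples for C19H28O3, C21H28O5 and C21H34O4 and higher for C21H34O5, and C19H30O3 is at 0 in untreated samples.

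By oxygen number the C21 masses summed as follows. With 2 oxygens the sum went from 24.8 ± 6.80 to 1.87 ± 1.28, with 3 oxygens from 3.77 ± 0.392 to 0.399 ± 0.315, and with 4 oxygens from 12.4 ± 1.07 to 1.99 ± 0.615. With 5 oxygens it went the other way, from 2.80 ± 0.195 to 9.98 ± 2.66 (SD, n = 4 each). By hydrogen number all 4 sums were lower: from 7.01 ± 0.357 to 0.969 ± 0.299 with 28, from 7.94 ± 0.271 to 2.71 ± 0.686 with 30, from 18.7 ± 6.51 to 4.39 ± 1.35 with 32, and from 10.2 ± 1.12 to 6.18 ± 1.97 with 34. These sums are descriptions of the rows and were not tested. Related formulas with other numbers of oxygen or hydrogen atoms were matched as well. All 4 masses of C21 formulas with 6 oxygens, which belong to 3 formulas, were listed in streptomycin samples only, against 47.3% of all masses. The most intense was C21H30O6 at 378.2045 Da and 6.29 ± 1.18 (SD, n = 4). C21H26O5, at 358.1783 Da, was listed in 3 streptomycin samples and no untreated sample. C21H26O2, at 310.1935 Da, was at 1.51 ± 0.194 (SD, n = 4) in untreated samples only.

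The androgen formulas, of 19 carbons, had 7 masses. Of these 5 were listed in streptomycin samples only, against 47.3% of all masses, 2 in both groups, and none in untreated samples only, against 26.6%. By formula, with rows summed, 3 of 5 were listed in streptomycin samples only. Of the 5 masses, 4 had a row at an ion-form spacing that untreated samples alone listed, and its part in the count was not tested. Of the 2-oxygen formulas, testosterone and its isomer dehydroepiandrosterone, C19H28O2, matched 288.2090 Da at 1.13, 1.18, 1.09 and 1.02 in streptomycin samples. The reduced androgens dihydrotestosterone and androsterone, C19H30O2, matched 290.2247 Da at 2.70, 2.99, 2.33 and 2.11. Both were listed at 0 in untreated samples, and both varied little between streptomycin samples. Androstenedione, C19H26O2, and androstanediol, C19H32O2, had no mass within 3 ppm.

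For C19H30O2 a row one 13C spacing higher, 291.2281 Da, was listed in the same 4 streptomycin samples, at 19.2% ± 6.74 of its intensity (SD, n = 4). The natural abundance of 13C gives 20.6% for 19 carbons. Apart from the mass of C18H22O2, no other of the 25 masses had a row within 1.5 ppm of this spacing. That includes 316.2403 Da, the most intense. Below the C19H30O2 mass by a sodium-for-hydrogen exchange lay 268.2426 Da, a row of untreated samples only at 3.61 ± 1.26. The same held for C19H30O3, with 284.2375 Da in untreated samples only at 4.16 ± 0.498 (SD, n = 4). Such a partner, at an ion-form spacing and confined to the opposite group, existed for 7 of the 25 masses, or for 4 without the potassium-for-sodium spacing, which differs by 0.152 mDa from a change of elements. Counting partners whichever group listed them, 19 of the 25 masses had a row at an ion-form spacing. The mass at 316.2403 Da had 300.2665 Da below it at the potassium-for-sodium spacing. The means of that row were 50.4 ± 13.1 without and 20.6 ± 8.37 with streptomycin (SD, n = 4). Rows also lay below 330.2196, 362.2095 and 364.2252 Da at the potassium-for-hydrogen spacing. Whether such rows are other ion forms of the same compounds was not tested.

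With 3 oxygens, 11-hydroxyandrosterone, C19H30O3, matched 306.2196 Da at 1.59, 1.71, 1.68 and 1.47 and 306.2197 Da at 0.459, 0.436, 0.224 and 0.552, in streptomycin samples only. Hydroxytestosterone, C19H28O3, had a row in both groups. That row, 304.2039 Da, was at 1.79, 1.76, 1.70 and 1.76 in untreated and 0.893, 0.856, 0.804 and 0.957 in streptomycin samples. The groups were far apart for their spread, with means of 1.75 ± 0.0397 and 0.878 ± 0.0644 (SD, n = 4). The log2 change was -0.999 ± 0.0853 (SE; limma adjusted p = 1.01e-05), and it passed under all 22 alternatives run, with log2 changes of -1.42 to -0.61. The other row of this formula, 304.2040 Da, was at 0.513, 0, 0.465 and 0.604 in streptomycin samples only. Summed over both rows the formula was at 1.75 ± 0.0397 and 1.27 ± 0.303, a log2 change of -0.49 ± 0.19 (SE; limma adjusted p = 0.0350).

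The mass of 11-oxotestosterone and hydroxyandrostenedione, C19H26O3, 302.1883 Da, was at 1.37, 1.61, 1.57 and 1.61 in untreated and 0.839, 0.863, 0 and 0.990 in streptomycin samples. The groups did not overlap, but with a stand-in value for the 0 of streptomycin sample 3 the log2 change was -1.68 ± 0.82 and did not pass (SE; limma adjusted p = 0.0853). Without that sample it was -0.78 and passed (limma adjusted p = 0.000515). It passed on the calibrant scale as well (limma adjusted p = 0.0286). The related C19 formulas with 4 oxygens matched 5 masses. Of these 3 were listed in streptomycin samples only, against 47.3% of all masses, 1 in both groups and 1 in untreated samples only. The last was C19H30O4 at 322.2146 Da, at 2.29 ± 0.32 (SD, n = 4). By sum, the C19 masses went from 3.29 ± 0.0977 to 7.62 ± 0.697 and the C21 masses from 43.8 ± 7.61 to 14.2 ± 3.90 (SD, n = 4 each).

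Of the oestrogen formulas, oestrone, C18H22O2, alone was matched. Its mass, 270.1620 Da, was at 1.30, 1.44, 1.48 and 1.59 in untreated samples and listed at 0 in streptomycin samples. Oestradiol, C18H24O2, and oestriol, C18H24O3, had no mass within 3 ppm. The row one 13C spacing above the oestrone mass, 271.1654 Da, was at 33.5% ± 5.35 of it in untreated samples (SD, n = 4), where natural abundance gives 19.5% for 18 carbons, and it was listed in streptomycin samples as well.

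Sulfate conjugates, a form in which steroids are secreted with bile and urine and from which bacterial sulfatases release them, went in more than one direction. The mass of pregnenolone sulfate, C21H32O5S, 396.1971 Da, was listed at 0 in the untreated samples and at 0.997, 0, 1.33 and 4.13 in streptomycin samples, so sample 4 held most of it. Dehydroepiandrosterone sulfate, C19H28O5S, had no mass within 3 ppm. Of 8 further sulfate formulas, 3 were matched, all in both groups. Tetrahydrocorticosterone sulfate, C21H34O7S at 430.2026 Da, rose from 1.93 ± 0.565 to 4.07 ± 0.689 (SD, n = 4), a log2 change of 1.11 ± 0.24 (SE; limma adjusted p = 0.00291). Its values were 1.96, 2.65, 1.27 and 1.85 in untreated and 4.85, 3.8, 3.26 and 4.36 in streptomycin samples. It passed under all 22 alternatives run, while both rows of unconjugated tetrahydrocorticosterone were lower or listed at 0.

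Pregnanolone sulfate, C21H34O5S at 398.2128 Da, fell from 2.28 ± 1.32 to 0.707 ± 0.323 (SD, n = 4), a log2 change of -1.67 ± 0.52 (SE; limma adjusted p = 0.0164). Its values were 4.17, 1.84, 1.08 and 2.04 in untreated and 0.639, 0.291, 0.854 and 1.04 in streptomycin samples, so the groups nearly touched. Cholesterol sulfate, C27H46O4S at 466.3118 Da, rose from 12.3 ± 2.31 to 24.9 ± 5.94 (SD, n = 4), a log2 change of 1.00 ± 0.23 (SE; limma adjusted p = 0.00387). On the calibrant scale this was 0.58 and did not pass (limma adjusted p = 0.0873).

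**Figure D5:**
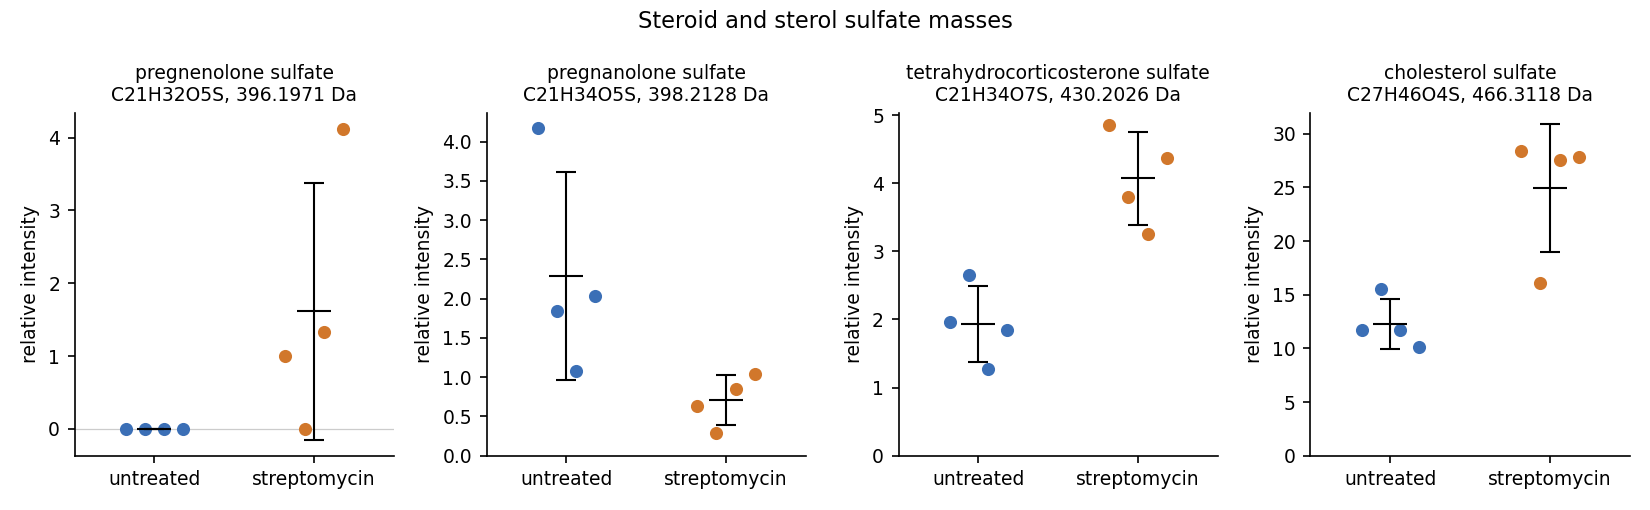
Relative intensity (linear y axis) of 4 masses at the formulas of steroid and sterol sulfates in untreated and streptomycin samples. Points are samples, and bars are the mean and SD of n = 4. Tetrahydrocorticosterone sulfate and cholesterol sulfate lie higher in streptomycin samples and pregnanolone sulfate lies lower, while pregnenolone sulfate is at 0 in every untreated sample.

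The related formulas also held 26 unconjugated steroids and sterols and 10 glucuronides. With the 8 sulfates these were 44 formulas, of which 15 were matched by 18 masses, 11 called higher, 5 lower and 2 not passing. Among all masses tested 52.7% were called higher and 36.7% lower. Of the 18 masses 9 were listed in streptomycin samples only, against 47.3% of all masses. A further 2 were listed in untreated samples only, against 26.6%. The calls of these masses repeat the listing. Of the 7 in both groups 2 were higher, 3 lower and 2 did not pass, against 20.7% higher and 38.7% lower among all masses in both groups. The most intense related mass was C21H36O4 at 352.2614 Da, the formula of pregnanetetrol and of monolinolenin. It fell from 30.6 ± 10.7 to 8.64 ± 1.33 (SD, n = 4), by 1.78 ± 0.24 on the log2 scale (limma adjusted p = 0.000193). Cholestenone and dehydrocholesterol, C27H44O at 384.3393 Da, were at 8.60, 0, 11.3 and 13.8 in untreated samples and 6.09 ± 1.94 in streptomycin samples (SD, n = 4), and did not pass (limma adjusted p = 0.625). Without untreated sample 2, at 0, the log2 change turned from 0.88 to -0.93 (limma adjusted p = 0.0403). Dihydroxycholesterol, C27H46O3 at 418.3448 Da, an intermediate formula on the way from cholesterol to pregnenolone, fell from 5.21 ± 0.435 to 2.03 ± 0.306 (SD, n = 4), by 1.37 ± 0.13 on the log2 scale (limma adjusted p = 2.19e-05). Of the glucuronides 1 was matched, pregnanolone glucuronide by 494.2893 Da, at 10.8 ± 3.84 (SD, n = 4) in streptomycin samples only. That mass lies 2.69 ppm above the formula, outside the stated accuracy of 2 ppm. Cholesterol and coprostanol, its bacterial reduction product, had no mass within 3 ppm.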

How the data were processed

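The authors deposited a table of relative intensity per neutral mass and acquisition, on a linear scale, with 2 acquisitions for each of 4 untreated and 4 streptomycin samples. The sources used here do not say what it is relative to, how peaks were picked or how ion modes were joined; each sample was measured in both modes, per the labels. Neutral masses, in Da and other than intensities, are as deposited. Formula masses came from pyteomics 5.0.1 and were matched within 3 ppm. The sample value was the mean of both acquisitions, with 0 for one that did not list the mass. Before log2, 0 was set to the lowest sample value, 0.0738. limma 3.58.1 in R 4.3.3 was fitted to all 2429 masses, none of which fell below 3 listed samples in both groups, with no block, and p-values were adjusted over all of them (Benjamini-Hochberg, threshold 0.05). For pairs of masses, log2 ratios were tested by exact two-sided permutation, and the intervals came from inverting that test. Ion-form partners were rows within 1 ppm of a proton, sodium, potassium, hydrogen chloride or potassium-for-sodium spacing. Every steroid mass is named or counted. Of related formulas the 4 most intense masses were to be named, and the sulfates, dihydroxycholesterol and C21 neighbours were added after their values were seen. Members and lists were chosen with earlier results of these data known. Scalings were division by total intensity, by the median ratio over masses in all 8 samples, and by the calibrants. Other alternatives varied the value for undetected masses, the filter, the acquisition and the tolerance, left out each sample, or used the methods' t-test, a trend or a replicate block.

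The limma step was tested on 539 simulated masses, modelled on masses listed in all 8 samples and so without stand-in values. Of 100 given a 2-fold change it called 78%, of 100 given a 4-fold change 98%, and of 339 left alone 3. Only 3 of the 25 steroid masses were listed in all 8 samples. The rates therefore do not apply to calls that rest on a stand-in value. Other software was Python 3.11.15 with numpy 2.4.6, pandas 2.3.3 and matplotlib 3.10.9.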

Additional observations from a re-analysis of the deposited data

Results flagged for a closer look

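In 4 of 46 groups of 4 samples with any spread, a single sample stood apart from the others by more than Dixon's 95% limit, and chance sets apart about 1 group in 20. For C19H26O3 at 302.1883 Da untreated sample 1, at 1.37, lay below the others at 1.57 to 1.61, and streptomycin sample 3, at 0, lay below the others at 0.839 to 0.990. For a related formula, C19H28O4 at 320.1989 Da, untreated sample 4 was at 0 and the others at 1.14 to 1.16. For cholesterol sulfate, C27H46O4S at 466.3118 Da, streptomycin sample 2, at 16, lay below the others at 27.5 to 28.4.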

How the results depend on the processing

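Of 14 masses called lower and 10 called higher, leaving out 1 sample gave 12 to 14 and 9 to 10. The count of 10 higher fell to 5 with undetected values at 1, which is above many listed values, and to 6 with the nearest row per formula or without masses that have a partner of the opposite group. The 10 masses of streptomycin samples only likewise fell to 6 with the nearest row, without such partners, and with rows of a formula summed. Of the 5 masses in both groups called lower, 3 stayed past the threshold when masses in both groups were fitted alone, on the median-ratio scale and by the methods' t-test, and 2 among masses listed in all 8 samples, where only 3 of the 6 are fitted. Leaving out 1 sample gave 3 to 5. The pairing of replicate numbers was not borne out, with correlations of deviations of 0.03 to 0.12, and with the replicate block 13 were lower and 10 higher, with 4 of the 6 in both groups lower; corticosterone lost its call (limma adjusted p = 0.075), and no other steroid mass in both groups changed its call. Of 108 refits of the 5 called masses, 86 kept the call and 22 lost it. Of 21 refits of C19H26O3, which had no call, 5 passed and 16 did not. None of these refits changed direction. For 2 related masses the direction turned without the sample at 0: 384.3393 Da to -0.93 without untreated sample 2, and 320.1989 Da to -0.34 without untreated sample 4 (limma adjusted p = 0.0403 and 0.0371). Leaving out 1 sample gave log2 changes of -0.93 to 1.59 and -0.34 to 0.99 for them. The count of pairs past the threshold was 0 with undetected values halved and with either acquisition alone, which says nothing about stability, since at least 9 of 15 pairs would have to reach the smallest exact p. Pairs were not refitted with a sample left out. With 1 acquisition, 38 of 40 listings of masses of one group only kept their number of samples. The depth behind an intensity is unknown.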
